A study of Mus musculus with 2 samples.

Results

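Motile cilia genes were followed in the newborn mouse neural tube. The set holds 38 genes that were listed by symbol: transcription factors of ciliogenesis, genes used as markers of ependymal cells, and proteins of the moving axoneme. All 38 symbols matched 1 row each of the deposited gene tables, out of 43346 gene rows. The tissue was a single neural tube from each of 2 B6NCrl pups of 1 litter, taken at postnatal day 0, with no treatment or mutation named in the labels. Sex was not collected. Total RNA above 200 bases was kept and 10.0 ng went into each library. The pups formed 1 group with n = 2, so the study held no contrast and no test between conditions was possible. The labels name a pup 1 and a pup 2 but give both libraries the same donor identifier, and what that identifier stands for is not stated. Values are given for pup 1 and pup 2 separately, as 2 littermates, and any SD is over these 2 libraries. Were they from 1 animal, that spread would be technical.

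Motile cilia beat because dynein motors, arranged in outer and inner arms along an axoneme of microtubule doublets, slide the doublets past each other, while radial spokes and a central pair of microtubules regulate the stroke. In the brain and spinal cord, ependymal cells line the ventricles and the central canal and move cerebrospinal fluid (CSF) with such cilia. Most arise from radial glia and build their cilia around and after birth, under a programme in which geminin-family coactivators act upstream of the forkhead factor Foxj1 and of RFX factors.

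The libraries held 26916916 and 40003518 expected counts over gene rows in pup 1 and pup 2, a 1.49-fold difference in depth. A total of 3 counts, the limit that a count of 0 allows, corresponded to 0.112 and 0.0750 CPM. Levels are given as TPM, in which reads are divided by transcript length and scaled to the same total in each library, and a gene is called detected when both pups reach a TPM of 1. In these bulk libraries, fewer cells of a type and less RNA per cell cannot be told apart.

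At that threshold 25 of the 38 motile cilia genes were detected. Another 2, Dnali1 and Ak7, reached it in pup 2 only, and 11 reached it in neither pup. The same rule was met by 35.5% of all gene rows and by 63.8% of the 21474 protein-coding genes, so the share of members lay near that of protein-coding genes. The median of the members was 2.29 TPM, against 5.51 TPM for all protein-coding genes. On protein-coding transcripts alone these medians were 1.37 TPM and 4.53 TPM. Summed over the members the level was 212.9 TPM in pup 1 and 193.4 TPM in pup 2 (mean 203.2 TPM ± 13.8, SD, n = 2). Of this sum the spoke protein gene Rsph9 alone held 27.9% in pup 1 and 28.9% in pup 2.

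Members close to the threshold were few. Just inside it stood Rsph4a, with 1.35 and 1.02 TPM, and Ccdc153, with 1.35 and 1.07 TPM. Just outside it were Dnali1 at 0.88 and 1.00 TPM, Gmnc at 0.99 and 0.78 TPM, and Ak7 at 0.60 and 1.03 TPM. Beside each TPM the authors deposited an interval bounding it within its library. Its lower bound reached 1 in each pup for 23 members, so Rsph4a and Ccdc153 were the detected members that a stricter reading leaves out.

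**Figure D1:**
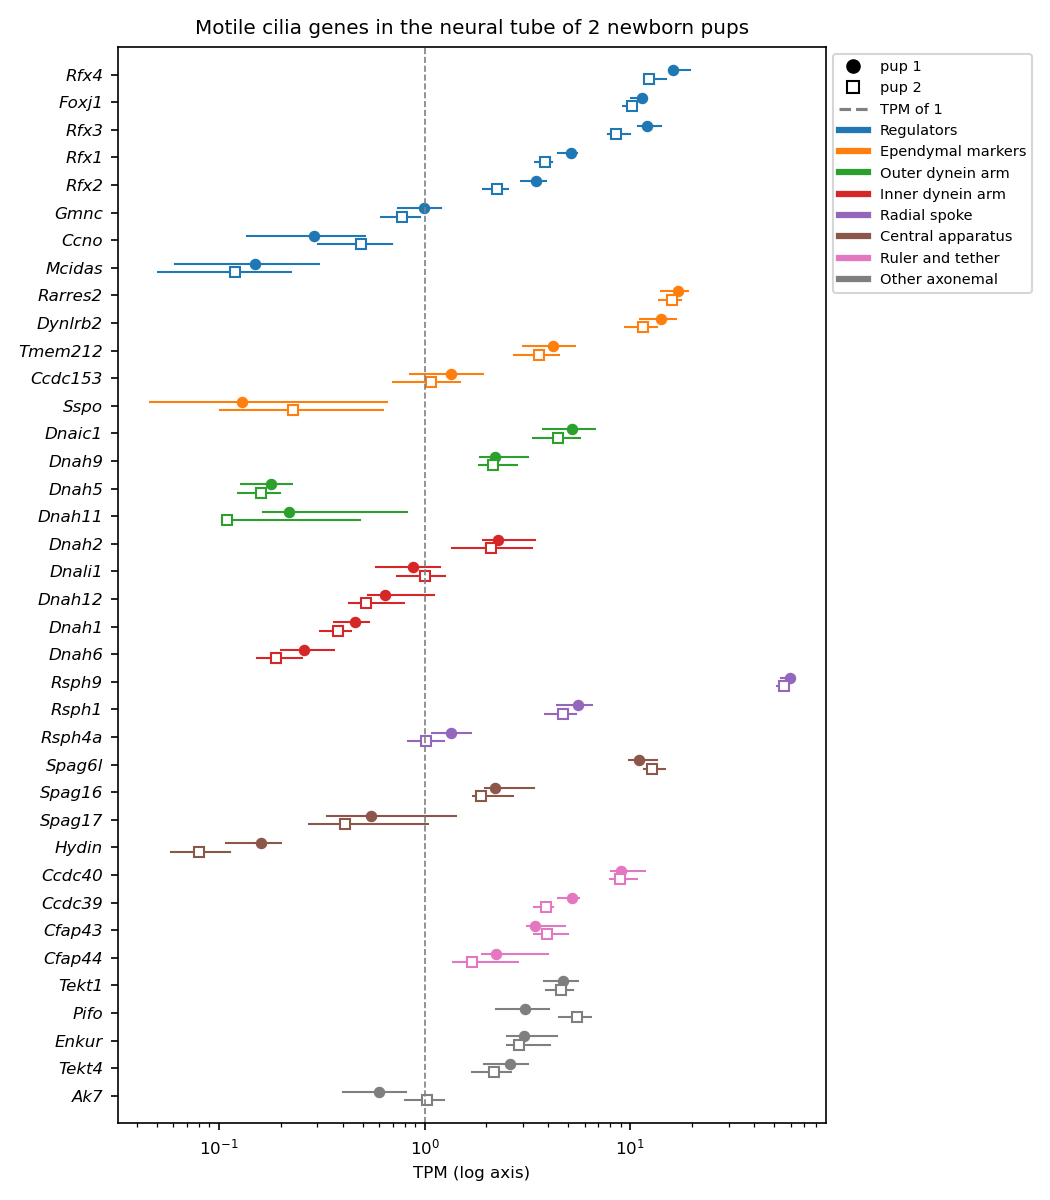
TPM (log axis) of the 38 motile cilia genes in pup 1 (filled circles) and pup 2 (open squares), grouped by role and coloured by it; horizontal lines are the deposited intervals and the dashed line is a TPM of 1. Rsph9 stands above all other members, and the dynein heavy chains other than Dnah2 and Dnah9 lie below the dashed line in both pups.

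Foxj1, the forkhead factor that switches on motile cilia genes, was among the higher members. It lies on chromosome 11 (chr11:116330704-116335399, minus strand, GRCm38) and read 11.35 TPM in pup 1 and 10.2 TPM in pup 2, from 494 and 683 expected counts. The pups' intervals, 10.03 to 11.96 and 9.24 to 10.7 TPM, overlapped. Foxj1 was therefore detected well above the threshold in both newborn neural tubes, at a mean of 10.8 TPM ± 0.827 (SD).

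The RFX factors bind X-box motifs in promoters of cilium genes and also serve cells with primary cilia. Rfx4, which is broadly expressed in neural progenitors, had the highest level of the regulators, at 16.2 TPM in pup 1 and 12.3 TPM in pup 2. Rfx3, a regulator of both motile and primary cilia, stood at 12.1 and 8.52 TPM. The other two were lower, Rfx1 at 5.14 and 3.87 TPM and Rfx2 at 3.49 and 2.26 TPM. All 4 read lower in pup 2, and for each of them the deposited intervals of the pups did not overlap.

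The other three regulators of the set were below the threshold. Mcidas, the coactivator multicilin, had 0.15 and 0.12 TPM from 6 and 7 counts. Gmnc, the related geminin coiled-coil protein that acts before it, had 0.99 and 0.78 TPM from 68 and 83 counts. Ccno, a cyclin-family protein needed for making the many basal bodies of such cells, had 0.29 and 0.49 TPM from 9 and 23 counts. Reads of all 3 were thus present in both pups, but for Mcidas and Ccno at counts where the estimate is coarse.

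Further genes of centriole amplification and the multiciliated cell programme were described from a list of 15. Of these, 8 were detected, with a median of 1.26 TPM. The 3 highest were Cby1, which helps basal bodies dock, at 79.8 and 73.4 TPM, and the cell cycle factors E2f4, at 24.8 and 22.4 TPM, and E2f5, at 20.5 and 22.2 TPM. The lowest was Cdc20b at 0.04 and 0.02 TPM. Deup1, which builds the deuterosomes found in multiciliated cells, was not detected, at 0.87 and 0.41 TPM, nor was Trp73, a transcription factor of that programme, at 0.11 and 0.15 TPM. The detected genes of the list include E2f4, Plk4, Cep152, Cep63, Sass6 and Ccp110, which dividing cells also use. Stil and Myb, which dividing cells use as well, were not detected, at 0.77 and 0.67 TPM and at 0.47 and 0.67 TPM. All the genes named here besides the 3 highest and the lowest were picked out after their values were seen.

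Promoter sequences show which members carry the letters that RFX factors are known to bind. RefSeq promoters on GRCm38.p6, from 250 bases before to 50 bases after each start, were matched by symbol for 34 of the 38 members. Foxj1, Rarres2, Rsph1 and Rsph4a had no entry. The RFX core GTTGCC was searched on both strands, so that its reverse complement counts too, and overlaps with other motifs were allowed. It was present in 15 of the 34 genes, or 44.1%. Over all 27025 genes of the promoter table the share was 14.1%, and over all 32851 promoters 12.5%. A stricter pattern was searched after the data were seen: 2 such cores in inverted orientation, up to 3 bases apart, with at most 1 mismatch over both. It occurred in 6 of the 34 members (17.6%) and in 1.38% of all genes.

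These 6 paired cores are printed on the strand of the gene, from upstream sequence only, with the exact core, in either direction, in capitals and its less exact partner beside it in lower case.
Dynlrb2 at chr8:116504946-116504987 (plus strand): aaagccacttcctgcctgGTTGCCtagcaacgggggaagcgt
Hydin at chr8:110266946-110266976 (plus strand): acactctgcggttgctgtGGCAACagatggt
Pifo at chr3:106001498-106001527 (minus strand): ccgcggttccgttcccttGGCAACgtagta
Cfap44 at chr16:44394762-44394798 (plus strand): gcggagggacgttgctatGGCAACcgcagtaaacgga
Ccdc153 at chr9:44240507-44240548 (plus strand): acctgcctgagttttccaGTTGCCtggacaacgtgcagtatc
Rfx2 at chr17:56831101-56831142 (minus strand): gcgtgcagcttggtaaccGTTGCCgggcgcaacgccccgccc
Spag16, a gene of the central apparatus, held a pair facing the other way, with both exact cores in capitals.
Spag16 at chr1:69826841-69826882 (plus strand): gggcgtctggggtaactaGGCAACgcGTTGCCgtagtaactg

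The core lay close to the start in several of these genes. Its first base was 12 bases before a RefSeq start in Pifo, 13 in Hydin, 19 in Cfap44 and 51 in Dynlrb2, but 116 in Rfx2 and 152 in Ccdc153. Pifo has 2 promoter entries, and the core was in only 1 of them. The start of that entry lies inside the span of the gene, chr3:105996957-106014646 (minus strand). By role, the core was found in 4 of the 5 other axonemal members, 3 of 4 central apparatus genes and 5 of 7 regulators. It was found in none of the 7 dynein heavy chain promoters. Of the 15 genes with a core 12 were detected, and of the 19 without one 9 were. The 7 heavy chain genes are all in the latter group, and the part of gene length in this difference was not tested. A match describes the letters and is not a bound site, and the promoters without a match say nothing of binding elsewhere.

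The forkhead core GTAAACA, of the kind that Foxj1 binds, was searched in the same way and was less common among the members. It was in 2 of 34 members (5.88%) and in 4.05% of all genes, so the share of members was near that of all genes. The windows of both, Ak7 and Cfap43, are shown with the core in capitals.
Ak7 at chr12:105705833-105705875 (plus strand): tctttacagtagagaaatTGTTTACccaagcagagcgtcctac
Cfap43 at chr19:47837392-47837434 (minus strand): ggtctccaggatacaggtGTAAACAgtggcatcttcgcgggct

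Of the genes used as ependymal markers, 4 of 5 were detected. Rarres2, which encodes the secreted protein chemerin, had 17.0 TPM in pup 1 and 16.0 TPM in pup 2. Dynlrb2, a roadblock-type dynein light chain, had 14.2 and 11.6 TPM. Tmem212, a membrane protein gene that marks ependymal cells, had 4.23 and 3.60 TPM from 45 and 59 counts. Ccdc153, another ependymal marker, was the weakest of the 4, at 1.35 and 1.07 TPM from 23 and 28 counts. The deposited intervals of the pups overlapped for each of these genes. Sspo, which encodes SCO-spondin, the glycoprotein of Reissner's fibre, was not detected: it had 0.13 and 0.23 TPM from 4 and 11 counts. Its coding transcripts of at least 10 kb held 0.01 TPM in each pup.

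The level of Rarres2 is uncertain because of an overlapping gene. In the M21 models of the deposited transcripts, 328 of its 731 exonic bases (44.9%) lie opposite those of Lrrc61, a protein-coding gene on the other strand that had 12.8 and 11.3 TPM. The deposited length of the Rarres2 transcript, 708 bases, differs from that model, so this share is approximate. Whether the authors' counting used strand is not stated, and without strand, reads that lie wholly within the shared bases cannot be told apart. The expected counts of Rarres2, 178.71 and 258.98, were not whole, although it has 1 transcript. Counts were not whole for 6 of the 38 members, all of them among the 11 that share exonic bases with another gene. Whether reads were divided between Rarres2 and Lrrc61 was not tested.

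A further list of 8 ependymal genes had 7 detected and a median of 15.5 TPM. Cd24a was highest, at 250.4 and 218.8 TPM, followed by Mia, at 55.3 and 48.5 TPM, and S100b, at 29.6 and 34.7 TPM. The lowest was the kinase gene Nek5, at 0.58 and 0.70 TPM. Cd24a and S100b are not limited to ependymal cells, since immature neurons express the former and glia the latter. How far the other genes of this list are limited to ependymal cells was not tested, so its median is not a level of those cells. Genes used as ependymal markers were therefore detected in both neural tubes at levels from near the threshold upwards, while Sspo and Nek5 were not detected. Which cells they came from was not tested.

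Radial glia and astrocyte genes, which immature ependymal cells share, were far higher. All 7 of that list were detected, with a median of 168.2 TPM and the highest values for Fabp7, at 2259 and 2129 TPM, Vim, at 320.5 and 328.6 TPM, and the gap junction gene Gja1, at 153.3 and 189.9 TPM. The lowest was the intermediate filament gene Nes, at 7.78 and 8.30 TPM. Foxj1 read above Nes and below the other 6 genes of this list in both pups.

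Outer dynein arms carry the force of the beat, and 2 of their 4 genes were detected. Dnaic1, an intermediate chain, had 5.20 TPM in pup 1 and 4.47 TPM in pup 2. Of the heavy chains, which are the motors, Dnah9 had 2.19 and 2.14 TPM. Dnah5 had 0.18 and 0.16 TPM from 48 and 67 counts, and Dnah11 had 0.22 and 0.11 TPM from 27.7 and 32.0 expected counts. Dnah5 and Dnah9 are partners in the same arm, yet at the gene level Dnah9 read above the threshold and Dnah5 below it in both pups.

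Inner dynein arms shape the waveform, and 1 of their 5 genes was detected in both pups. Dnah2, a heavy chain, had 2.27 and 2.11 TPM. The other heavy chains were lower, with Dnah12 at 0.64 and 0.52 TPM, Dnah1 at 0.46 and 0.38 TPM and Dnah6 at 0.26 and 0.19 TPM. Dnali1, a light intermediate chain, passed the threshold in pup 2 alone, at 0.88 and 1.00 TPM. Its intervals overlapped widely, so the pups are not distinguished by this.

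The gene-level TPM of the detected heavy chains rested mostly on short transcripts. Expected counts are not divided by length, and by counts the long coding transcripts held a larger part of each gene. Dnah2 (chr11:69420809-69549110, minus strand) has coding transcripts over 10 kb that together held 0.50 TPM in pup 1 and 0.37 TPM in pup 2. By expected counts, the one of 13704 bases held 109.3 of the gene's 186.5 in pup 1 and 104.4 of 192.7 in pup 2. Most of the TPM of Dnah2 sat on transcripts with no annotated protein. Of these, one of 2616 bases held 68.9% in pup 1 and 37.0% in pup 2. Another of 386 bases held 40.6% in pup 2, from only 6.54 expected counts, and none in pup 1. At such a count the estimate is coarse.

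Dnah9 showed a like split. Its coding transcript of 13798 bases had 0.34 and 0.23 TPM, from 80.5 and 85.2 of the gene's 150.8 and 195.3 expected counts. A coding transcript of 2671 bases had 0.78 and 1.01 TPM, and a retained-intron transcript of 1797 bases had 1.01 and 0.74 TPM. In Dnaic1 a retained-intron transcript of 965 bases carried 57.2% and 54.1% of the gene's TPM. Its coding transcripts summed to 2.23 and 2.05 TPM, still above the threshold in both pups. In Dnah11 a transcript of the nonsense-mediated decay class held 54.4% and 58.6%.

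A wider list of 14 dynein and docking genes had 8 detected, with a median of 1.39 TPM, and 5 when coding transcripts alone were summed. Dnah7a read highest, at 10.8 and 10.4 TPM, but its coding transcripts held 0.08 and 0.05 TPM. It has close copies, Dnah7b and Dnah7c, and reads could be divided between them, so its level is uncertain. Next came Dnal1, a light chain, at 6.63 and 8.90 TPM, and the docking gene Ccdc114, at 6.49 and 5.91 TPM. The lowest was the heavy chain Dnah3, at 0.05 and 0.02 TPM.

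Dynein arms are assembled in the cytoplasm by dedicated factors, and 7 of a list of 9 were detected, with a median of 2.07 TPM. Dnaaf2 was highest, at 9.13 and 10.2 TPM, then Spag1, at 4.71 and 4.85 TPM, and Dyx1c1, at 2.81 and 2.21 TPM. Pih1d3 had 0 counts in both pups, and Dnaaf1 was below the threshold at 0.44 and 0.36 TPM.

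Radial spokes pass signals from the central pair to the dyneins, and all 3 spoke head genes of the set were detected. Rsph9 (chr17:46122035-46144216, minus strand) was the highest of the 38 members, at 59.35 TPM in pup 1 and 55.9 TPM in pup 2, from 846 and 1221 counts. Its intervals, 53.7 to 62.1 and 51.7 to 58.4 TPM, overlapped each other and lay above those of every other member. It ranked higher than 86.5% of protein-coding genes by mean TPM.

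The partners of Rsph9 in the spoke head did not share its level. Rsph1 had 5.55 and 4.70 TPM, and Rsph4a, whose product sits in the same spoke head, had 1.35 and 1.02 TPM. In both pups Rsph9 was on the per-length scale about an order of magnitude above Rsph1. Coding transcripts accounted for 99.1% and 99.7% of Rsph9.

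The central apparatus was mixed, with 2 of 4 genes detected. Spag6l, an armadillo-repeat protein of the central pair, had 10.97 TPM in pup 1 and 12.8 TPM in pup 2, with 61.1% and 57.0% of it on the coding transcript. Spag16, its interaction partner, had 2.21 and 1.88 TPM. The large projection proteins were below the threshold: Spag17 had 0.55 and 0.41 TPM, and Hydin had 0.16 and 0.08 TPM from 42 and 35 counts. The coding transcript of Spag17 made 16.4% and 16.7% of its TPM. By expected counts that transcript held 12.2 of 16.6 in pup 1 and 13.4 of 18.6 in pup 2. In the M21 models, 9.66% of the exonic bases of Spag17 lie opposite those of Wdr3, which had 14.45 TPM in each pup. Its counts were not whole, and whether reads were divided with Wdr3 was not tested.

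Ccdc39 and Ccdc40 form the ruler that spaces dyneins and spokes along the doublet, and Cfap43 and Cfap44 belong to a tether of the inner arms. All 4 were detected at the gene level. Ccdc40 was highest, at 9.01 and 8.86 TPM, and Ccdc39 had 5.19 and 3.88 TPM. Although their products act as a pair, 29.9% and 27.2% of Ccdc40 was on coding transcripts, 2.69 and 2.41 TPM, which is below Ccdc39 in both pups. In the M21 models of the deposited transcripts, 34.2% of the exonic bases of Ccdc39 lie opposite those of Ttc14, which had 9.20 and 8.36 TPM. Without strand, reads within the shared bases cannot be told apart. The expected counts of Ccdc39, 314.9 and 362.6, were not whole, although it has 1 transcript. Whether reads were divided with Ttc14 was not tested.

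Cfap43 needs a correction of annotation. In the deposited tables its row (chr19:47736857-47919287, minus strand) had 3.45 and 3.92 TPM. Of this, 61.3% and 42.2% came from 1 transcript, which the later GENCODE M21 annotation assigns to the neighbouring gene Itprip. The transcripts that remained in Cfap43 held 1.34 and 2.27 TPM, from 63.2 and 114.0 expected counts, and its coding ones 0.51 and 0.48 TPM. It was the only member with such a transcript. Cfap44 had 2.22 and 1.71 TPM, of which its coding transcripts held 1.04 and 0.77 TPM.

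Of the 5 other axonemal genes, 4 were detected. Tekt1, a tektin filament protein inside doublets, had 4.73 TPM in pup 1 and 4.61 TPM in pup 2. Tekt4, of the same family, had 2.59 and 2.18 TPM, and Enkur, a protein of the inner doublet wall, had 3.06 and 2.87 TPM. These 3 differed little between the pups. Pifo, a ciliary protein known as pitchfork, had 3.08 and 5.48 TPM from 43 and 118 counts, with intervals that did not overlap. Ak7, an adenylate kinase of motile cilia, had 0.60 and 1.03 TPM from 31 and 82 counts, and its intervals overlapped by a narrow margin, ending at 0.813 TPM in pup 1 and starting at 0.805 TPM in pup 2.

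A further list of 33 axonemal genes had 29 detected and a median of 3.67 TPM. The highest were Tppp3, a tubulin-binding protein also made by other brain cells, at 217.8 and 248.5 TPM, the spoke gene Rsph3b, at 46.9 and 42.9 TPM, and Gas8, a protein of the nexin-dynein regulatory complex, at 25.1 and 23.6 TPM. The lowest was Tekt3, at 0.04 and 0.07 TPM, and Cfap53 passed in pup 2 only, at 0.65 and 1.21 TPM. Rsph3b has a close copy, Rsph3a, so the division between them is uncertain. Across the dynein, assembly, axonemal and multiciliation lists together, 52 of 71 genes were detected, with a median of 2.76 TPM.

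Intraflagellar transport and primary cilium genes, which nearly every ciliated cell uses, formed a different range. All 25 were detected, with a median of 16.5 TPM against 2.29 TPM for the motile cilia members. On coding transcripts alone the medians were 16.2 TPM and 1.37 TPM. Kif3a, a kinesin subunit, had 237.2 and 234.5 TPM, Ift46 had 118.2 and 116.1 TPM, and Ift20 had 108.3 and 114.9 TPM. The lowest, Bbs1, had 3.41 and 2.92 TPM, above the median of the motile cilia set.

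**Figure D2:**
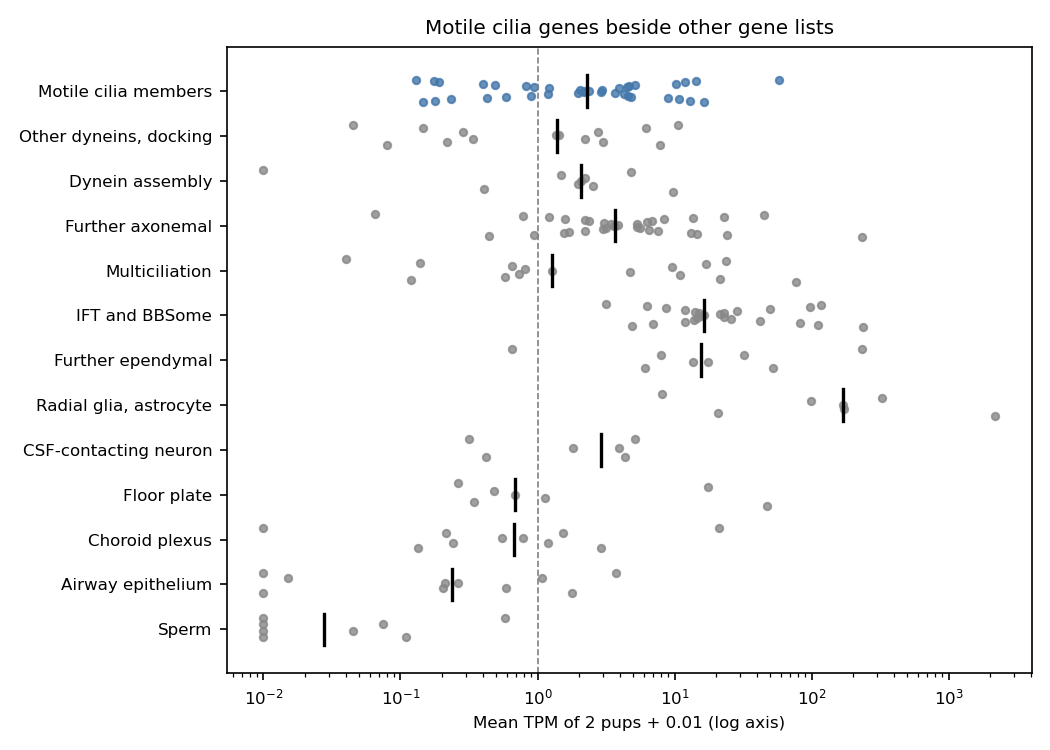
Mean TPM of the 2 pups, with 0.01 added so that genes at 0 can be drawn (log axis), for the 38 motile cilia genes (blue) and 12 other gene lists (grey); each point is a gene, black bars are medians and the dashed line is a TPM of 1. The members have a median of 2.29 TPM, the intraflagellar transport and BBSome list 16.5 TPM and the sperm list 0.0175 TPM.

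The longest members were the lowest as a group. Of the 38, 8 have a coding transcript of at least 10 kb: the heavy chains Dnah1, Dnah2, Dnah5, Dnah6, Dnah9 and Dnah11, and Hydin and Sspo. At the gene level 2 of the 8 were detected, and 1, Dnah9, when coding transcripts alone were summed. Most of that sum in Dnah9 was on a transcript of 2671 bases, and its transcript over 10 kb held 0.34 and 0.23 TPM. Among all 333 protein-coding genes of that length, 85.9% were detected, and 79.9% by coding transcripts. Of the 30 shorter members 23 were detected. Of the 11 members whose longest coding transcript was under 2 kb, 10 were detected, against 42.5% of the 8615 protein-coding genes of that length. The mean counts of the 8, over all their transcripts and so also the short ones, ran from 7.5 for Sspo to 189.5 for Dnah2. The part of length or depth in their low TPM was not tested.

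**Figure D3:**
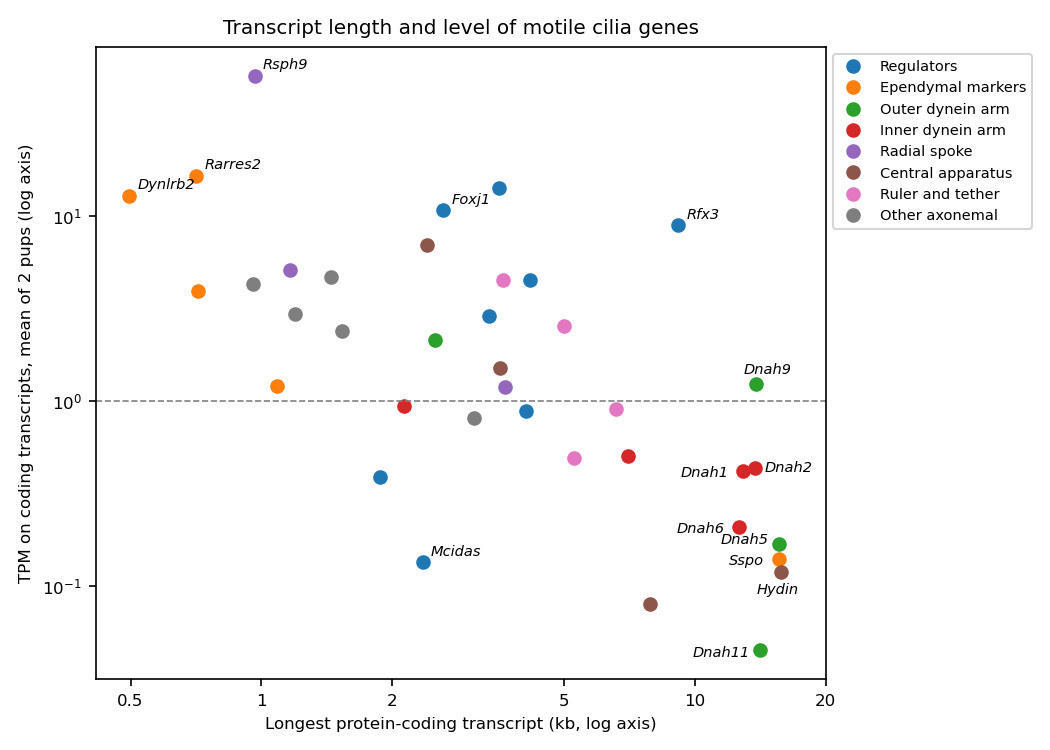
Length of the longest protein-coding transcript in kb (log axis) against the TPM on coding transcripts, as the mean of 2 pups (log axis), for the 38 motile cilia genes, coloured by role; the dashed line is a TPM of 1. Of the 8 members of 10 kb or more, only Dnah9 lies above the line, and its coding transcript of that length held 0.34 and 0.23 TPM.

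When TPM was summed over coding transcripts alone, 22 members were detected in place of 25. The members lost were Dnah2, Cfap43 and Cfap44. By the same rule 62.0% of protein-coding genes were detected. Of the 38 members, 17 have 1 transcript in the tables and 21 have several. In 15 of those 21 the same transcript led by TPM in both pups. In 5, Dnah2, Dnah11, Dnaic1, Spag17 and Ccdc40, a transcript with no annotated protein or of the decay class led in both.

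**Figure D4:**
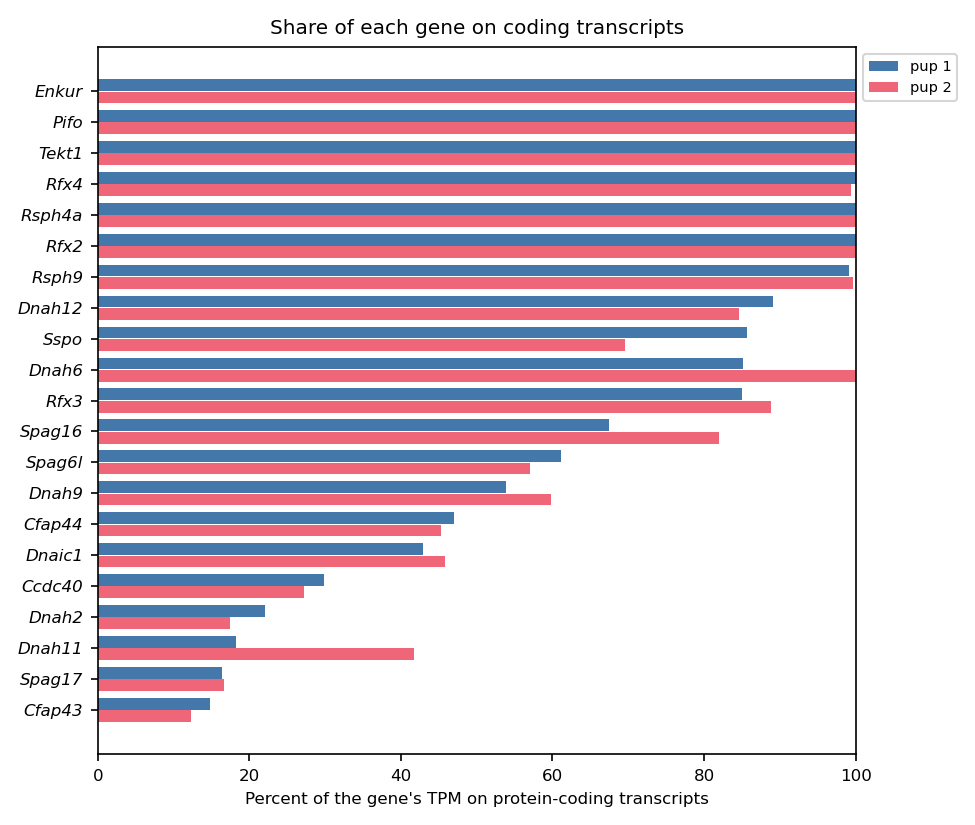
Percent of each gene's TPM on protein-coding transcripts in pup 1 (blue) and pup 2 (red), for the 21 members with several transcripts; transcripts now assigned to another gene count as not coding here. Spag17, Dnah11, Cfap43, Dnah2 and Ccdc40 are the 5 lowest in pup 1, from 14.7% to 29.9%, while Rsph9 is at 99.1% and 99.7%.

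Between the pups, counts were compared after scaling with TMM, which sets the bulk of genes equal. A mean count of 100 or more was reached by 18 of the 38 members. None of these 18 differed 2-fold, against 0.472% of the 13545 genes at that depth, and none differed 1.5-fold, against 2.01%. The count at 2-fold was also 0 with DESeq2 size factors, with library totals, with posterior mean counts and with no filter on counts. At any count, 5 members passed 1.5-fold: Ccno, Sspo, Ak7 and Pifo were higher in pup 2 and Hydin was lower. All 5 had mean counts under 100. Cfap43 is among the 18 only through the transcript assigned to Itprip, and without it 17 members reached that depth. With 1 library a pup there is no estimate of spread within a pup, so these are differences between 2 libraries.

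Small differences leaned one way. Among the 36 members averaging 10 or more counts, 28 read lower in pup 2 and 8 higher, and the median log2 ratio of pup 2 to pup 1 was -0.18. Without the Itprip transcript the scaled ratio of Cfap43 turned from 0.951 to 1.23, which makes 27 lower and 9 higher, with the median still -0.18. Over all 18105 genes at that depth, 50% read lower in pup 2 and the median was 0.00. At that depth the dynein assembly list had 5 genes lower and 3 higher, with a median of -0.13. The wider dynein and docking list had 8 lower and 5 higher, with a median of -0.07. The further axonemal list had 16 lower and 15 higher (median -0.02), and the multiciliation list 5 lower and 8 higher (median 0.04). Whether the members differ from these lists was not tested.

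Among the regulators, the 4 RFX genes read lower in pup 2 and Foxj1 was near even. Rfx2 had a scaled ratio of pup 2 to pup 1 of 0.677, with a 95% counting interval of 0.552 to 0.832, which covers counting error only. The ratio was 0.763 (0.697 to 0.834) for Rfx3. It was 0.790 (0.685 to 0.912) for Rfx1 and 0.802 (0.734 to 0.877) for Rfx4. All 4 intervals lay below 1, and 43.7% of the 13545 genes averaging 100 or more counts had an interval that left out 1 in either direction. For Foxj1 the ratio was 0.941 (0.837 to 1.06).

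Over all roles, counting intervals left out a ratio of 1 for 11 of the 36 members averaging 10 or more counts, against 36.7% of the 18105 genes at that depth. At 100 or more counts it was 8 of 18 members. Both shares of members are near or below those of all genes. Besides the 4 RFX genes, Dnah2, Hydin, Ccdc39 and Cfap44 were lower in pup 2, and Spag6l, Ak7 and Pifo higher. The largest ratio among these was that of Pifo, 1.87 (1.31 to 2.71). By the deposited intervals 5 of the 18 deeper members were apart, the RFX genes and Ccdc39, against 23.6% of genes at that depth. That share of members is near the share of all genes.

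**Figure D5:**
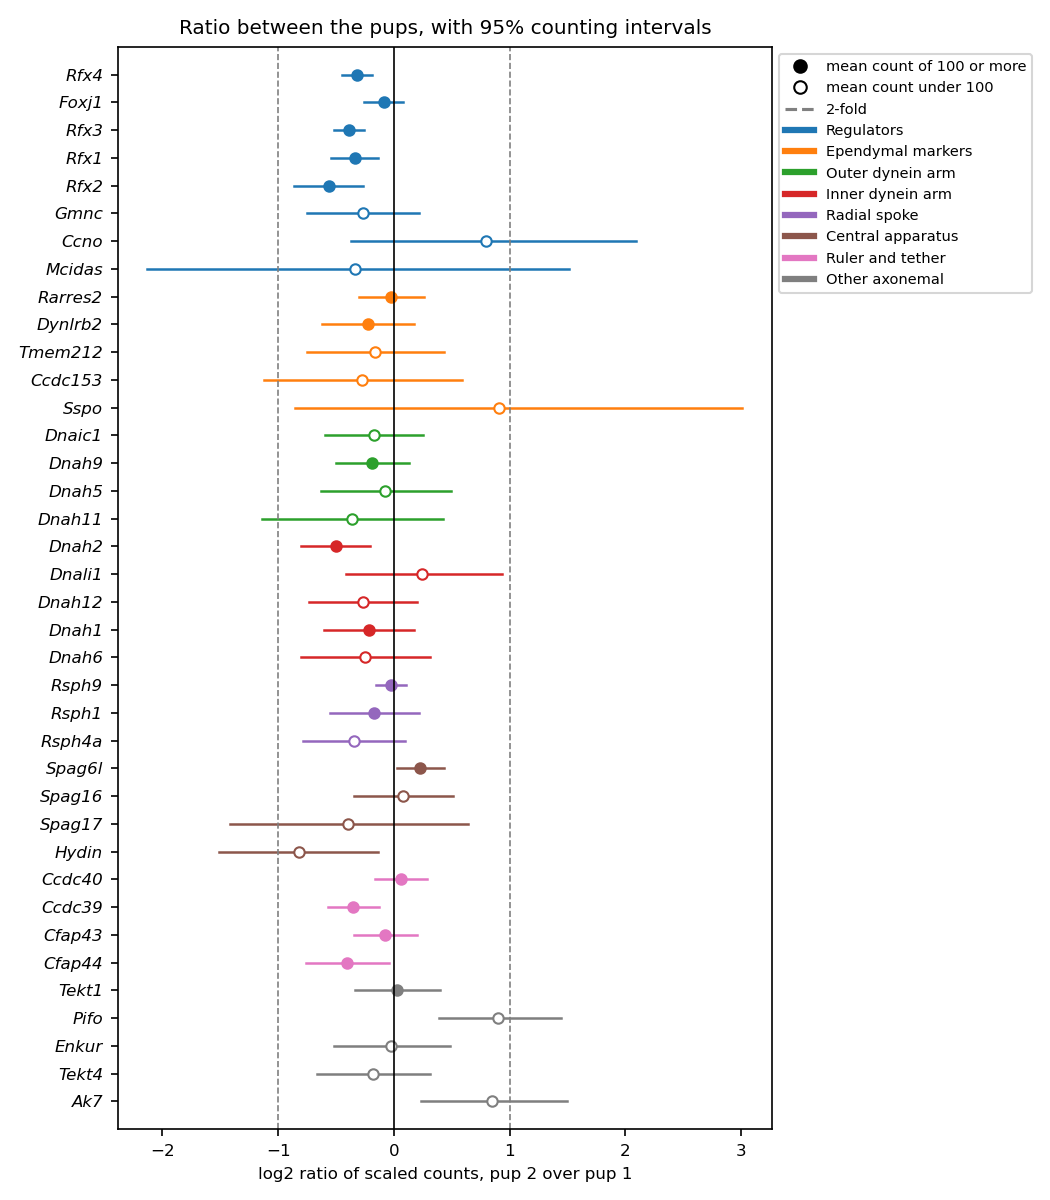
Log2 ratio of scaled counts, pup 2 over pup 1, for the 38 members in the order of their roles; lines are 95% counting intervals, filled points average 100 or more counts, and dashed lines mark 2-fold. Rfx1, Rfx2, Rfx3 and Rfx4 lie below 0 with their whole intervals, and no filled point reaches 2-fold.

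Markers of neighbouring cells were read beside the members. CSF-contacting neurons, which sit among the ependymal cells of the central canal and bear a cilium, had 4 of 6 markers detected and a median of 2.88 TPM. The highest were Pkd2l1, the channel that defines them, at 5.29 and 4.94 TPM, Gata3, at 4.33 and 4.31 TPM, and Gata2, at 4.47 and 3.40 TPM, and the lowest was Myo3b, at 0.36 and 0.25 TPM. All 6 read lower in pup 2, where 50% of the 18105 genes averaging 10 or more counts did so. The list had a median log2 ratio of -0.24 and a summed level of 17.1 and 14.7 TPM. It moved with the lean of the motile cilia genes, and its part in that lean was not tested.

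Floor plate markers had 2 of 7 detected, with a median of 0.67 TPM. Spon1 had a mean of 47.5 TPM and Ntn1 one of 17.5 TPM, and Shh, the defining signal, reached the threshold in pup 2 only, at 0.99 and 1.25 TPM. The lowest was Ferd3l, at 0.37 and 0.14 TPM, and the median log2 ratio of the list was -0.01.

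Markers of other organs with motile cilia, or of tissue near them, were mostly below the threshold. Choroid plexus had 3 of 10 markers detected: Sostdc1, at 20.0 and 22.2 TPM, Aqp1, at 1.79 and 3.99 TPM, and Kl, at 1.18 TPM in both pups. None of these 3 is confined to choroid plexus. Its defining genes were low, with Ttr at 0.98 and 0.57 TPM and Otx2 at 0 counts in both, and Folr1 passed in pup 1 only, at 2.09 and 0.94 TPM. The list summed to 27.1 and 30.1 TPM.

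Airway epithelium had 2 of 10 markers detected, the general epithelial genes Cdh1, at 2.73 and 4.77 TPM, and Epcam, at 1.61 and 1.92 TPM. Sftpc passed in pup 1 only, at 1.56 and 0.59 TPM, while Nkx2-1 and Scgb3a2 had 0 counts in both pups. Of 8 sperm genes none was detected and 4 had 0 counts in both pups. The highest were Prm1, at 0.63 and 0.51 TPM, Ldhc, at 0.17 and 0.03 TPM, and Tnp2, at 0.13 and 0 TPM. The airway list summed to 7.42 and 8.22 TPM and the sperm list to 0.93 and 0.61 TPM, against 212.9 and 193.4 TPM for the motile cilia genes. These sums are over 10, 8 and 38 genes, so they are not alike in size. The medians of the 3 sets were 0.23, 0.0175 and 2.29 TPM. Whether such tissue added to the level of the members was not tested.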

How the data were processed

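Total RNA-seq of 2 neural tubes was read from 1 gene table and 1 transcript table per pup. The deposited values are expected counts (estimated reads, which need not be whole), TPM, posterior means and interval bounds of TPM, and, per transcript, the percent of its gene's TPM, in columns named as RSEM writes them, per the file headers. mm10 and GENCODE M4 are named in the deposited notes. Which aligner, which version of RSEM and which strand option were used is not given in the sources used here. Rows for tRNA (26248) and others that name no gene (97) were left out. Of the 43346 gene rows, 884 had no symbol. Symbols, coordinates and transcript classes came from GENCODE M21 (GRCm38), and transcripts that M21 places in another gene, or that it does not hold (5 of 118 for the members), were not counted as coding.

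Expected counts were rounded and scaled by TMM (edgeR 4.0.16, R 4.3.3) on genes averaging 10 or more counts, and log2 ratios used a prior count of 2. DESeq2 1.42.0 size factors were an alternative. The steps for ratios were tested on simulated data. Counting intervals are exact (Clopper-Pearson) binomial intervals at 95%, conditional on the summed count, and cover counting error only. Promoters were RefSeq windows on GRCm38.p6, searched in Python 3.11.15. No test was run, since 2 pups of 1 group leave no contrast. All members are named, and of each other list the 3 highest, the lowest and any gene past the threshold in 1 pup only; a few more genes are named for their defining role. The members and lists were chosen with earlier results of these data known. Other TPM thresholds, posterior means, coding transcripts alone, other scalings and single pups were tried as alternatives.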

Additional observations from a re-analysis of the deposited data

How the results depend on the processing

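The number of motile cilia genes detected was 25 in the main reading. It stayed within 1.5 times of that in every alternative run, from 18 without the 11 members that share exonic bases with another gene to 29 at a TPM of at least 0.5. The count of 18 is over a set smaller by those 11 members, so by itself it does not show a lower share detected. It was 21 at a TPM of at least 2. The median level, 2.29 TPM, moved by more than the SD of the pups to 1.37 TPM on protein-coding transcripts alone. The summed level, 203.2 TPM, moved to 179.3 TPM on protein-coding transcripts and to 145.5 TPM without Rsph9, where leaving out the largest term is itself the change. Leaving out members with overlaps, Rsph9, or transcripts that M21 places elsewhere were choices made after seeing the data. Without those transcripts 27 members read lower in pup 2 and 9 higher. The median log2 ratio was -0.18 and ranged from -0.20 to -0.17 over scalings, filters and prior counts. By member, coding transcripts alone moved the level of 10 genes and the posterior mean that of 11 by more than the SD between the pups. Leaving out either pup gave 25 to 27 detected members, a count that cannot fall below the one for both pups. Depth limits the lowest members: 2 had a mean count under 10 and 20 under 100. No paired analysis was possible because both libraries belong to 1 group.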
